A study of Caenorhabditis elegans with 2 samples.

Results

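Heterochronic genes set the order in which larval cells of Caenorhabditis elegans pass from one stage's programme to the next, and 9 protein-coding genes of this class are described here, chosen by name: lin-14, lin-28, lin-41, lin-42, lin-46, lin-66, lin-29, hbl-1 and ain-1. They are 9 of the 19973 annotated protein-coding genes. The data are chromatin immunoprecipitation sequencing of whole L1 larvae of both sexes, strain OP345. The strain carries the mutation unc-119(ed3) III and the transgene wgIs345, from which C16A3.4 is made as a fusion with the green fluorescent protein eGFP. The immunoprecipitation was against this fusion, eGFP-C16A3.4. C16A3.4 is the zinc finger gene called znf-622 in the annotation. There is 1 group of 2 biological replicates and no second condition, so peaks are described and no condition is compared. All tissues are mixed in whole larvae, so a peak cannot be assigned to the cells in which a timing gene acts. The labels used here do not name the promoter of the transgene.

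In the heterochronic pathway, LIN-14, LIN-28 and HBL-1 hold cells in early larval programmes, and microRNAs of the lin-4 and let-7 families shut them down as larvae grow. LIN-28 in turn blocks let-7 maturation, and let-7 represses lin-41, which lets the transcription factor LIN-29 start the adult programme of the skin. L1 larvae stand at the start of this series, when LIN-14 is abundant and let-7 is not yet made in quantity.

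Each peak has a summit, the base its caller marks as the centre of enrichment, and a signal, the authors' own value per peak on a scale that is not stated. A summit was placed in a gene's promoter window when it fell within 1000 bp upstream or 200 bp downstream of the outermost 5′ end annotated for that gene. Of the 3220 peaks in the authors' thresholded list, 6 had their summits in the promoter windows of 5 of the 9 genes (lin-14, lin-28, lin-46, lin-66 and ain-1), and 2 more lay inside genes, in lin-14 and lin-28. Of all protein-coding genes, 13.7% had a summit in the window and 3.44% inside the gene. Longer genes can hold more summits. Per kb of gene, the 9 members held 0.0236 thresholded summits, from 2 summits, against 0.0131 over all protein-coding genes. The members and the window were chosen with earlier results of these data known, so the count of 5 of 9 was not tested against the share of 13.7%. No thresholded summit lay in the window or the body of lin-41, lin-42, lin-29 or hbl-1.

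The sequence within 50 bp of 6 of the 8 member summits is printed here, on the strand of the gene, to show what these peaks cover. Coordinates are on ce11, the bases are from the RefSeq copy of the same assembly (WBcel235), and capitals mark matches to the words searched.
lin-14 promoter window, chrX:11465267-11465367, plus strand: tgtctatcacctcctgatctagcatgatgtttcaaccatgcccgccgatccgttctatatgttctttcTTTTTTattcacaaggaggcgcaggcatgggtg
lin-14 intron, chrX:11467406-11467506, plus strand: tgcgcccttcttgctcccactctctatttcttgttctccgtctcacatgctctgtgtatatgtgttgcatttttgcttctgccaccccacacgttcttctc
lin-46 promoter window, chrV:12967946-12968046, plus strand: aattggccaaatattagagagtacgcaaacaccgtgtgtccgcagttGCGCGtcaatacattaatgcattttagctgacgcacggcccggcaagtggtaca
lin-66 promoter window, chrIV:13887679-13887779, plus strand: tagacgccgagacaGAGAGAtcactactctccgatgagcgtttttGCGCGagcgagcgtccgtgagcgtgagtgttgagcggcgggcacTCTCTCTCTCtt
ain-1 promoter window, stronger peak, chrX:16612428-16612528, plus strand: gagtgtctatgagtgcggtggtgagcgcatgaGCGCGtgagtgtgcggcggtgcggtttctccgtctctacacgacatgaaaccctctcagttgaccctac
ain-1 promoter window, weaker peak, chrX:16612639-16612739, plus strand: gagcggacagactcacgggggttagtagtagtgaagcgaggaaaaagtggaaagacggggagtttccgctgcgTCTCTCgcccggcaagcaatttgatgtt

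A total of 5 words were searched on both strands, and matches may overlap each other. GCGCG stood in 5 of the 8 member windows and in 29.6% of all 3220 windows of the same length. The repeat word GAGAGA stood in 2 of the 8, those of lin-66 and of the weaker ain-1 peak, and in 24.9% of all. A run of TTTTTT was found beside the lin-14 promoter summit, in 1 of the 8, against 23.7% of all. The word bound by GATA factors, GATAAG, was in none of the 8 and in 3.6% of all windows. The E-box word CACGTG was likewise in none of the 8, and in 5.37% of all. These matches are descriptions of the letters and not of bound sites. The windows of lin-66 and of the stronger ain-1 peak were rich in G and C, at 58.4% each, more than 94.7% of all thresholded windows. The median over all windows was 46.5%, which was also the value at the lin-14 promoter summit.

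lin-14 and lin-28 each had 1 thresholded summit in the window and 1 inside the gene. lin-14 encodes a nuclear DNA-binding protein that specifies L1 fates and is the classic target of lin-4. The gene (WBGene00003003; chromosome X, 11465560 to 11485871, plus strand) had a promoter peak with its summit at −243 bp and a signal of 102 in the thresholded list. The matching peaks had a signal of 44.4 in replicate 1 and 58.8 in replicate 2. Its rank was 1230 of 3220 after thresholding, and the replicates placed it close by, at 1091 and 1306 of 30000. Its summit lay inside an exon of the non-coding RNA gene T25C12.9 and at −12 bp of another, T25C12.8, and in no other protein-coding gene's window.

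The second lin-14 peak, with a signal of 75.1 and rank 1917, had its summit 1896 bp downstream of the 5′ end, in an intron. This summit too lay inside an exon of a non-coding RNA gene, T25C12.7. Its signal was 22.2 in replicate 1 (rank 3065) and 37.2 in replicate 2 (rank 2485). Both lin-14 summits of the thresholded list thus coincided with annotated non-coding RNAs, so neither peak can be assigned to lin-14 alone.

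Weaker lin-14 peaks appeared in the pooled list, a relaxed list of 21096 peaks and background called on both replicates together. Beside the intron peak above, it held 12 more summits inside lin-14, with signals from 15.0 to 43.0, against 48.4 for the weakest thresholded peak. The highest of them, at 17339 bp, ranked 3695, with the next at 8649 bp (signal 41.3) and 6546 bp (signal 40.5). The −log10 q of the 12 ran from 3.17 at the highest to 0.0524 at the weakest. It was 0.853 or less at signals of 25.3 and below, so the weaker ones may be background. Counting every pooled summit, however weak, lin-14 held 0.64 per kb of gene, against 0.306 over the 9 members and 0.172 over all protein-coding genes. The much shorter lin-28 held 0.63, from 2 summits, the weaker with a −log10 q of 0.812. In the thresholded list lin-14 held 0.0492 summits per kb and lin-28 0.315. None of these summits lay within 200 bp of the second annotated lin-14 5′ end, which is 14801 bp downstream of the first, and the nearest in its promoter window was at −854 bp of it (signal 25.3).

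**Figure D1:**
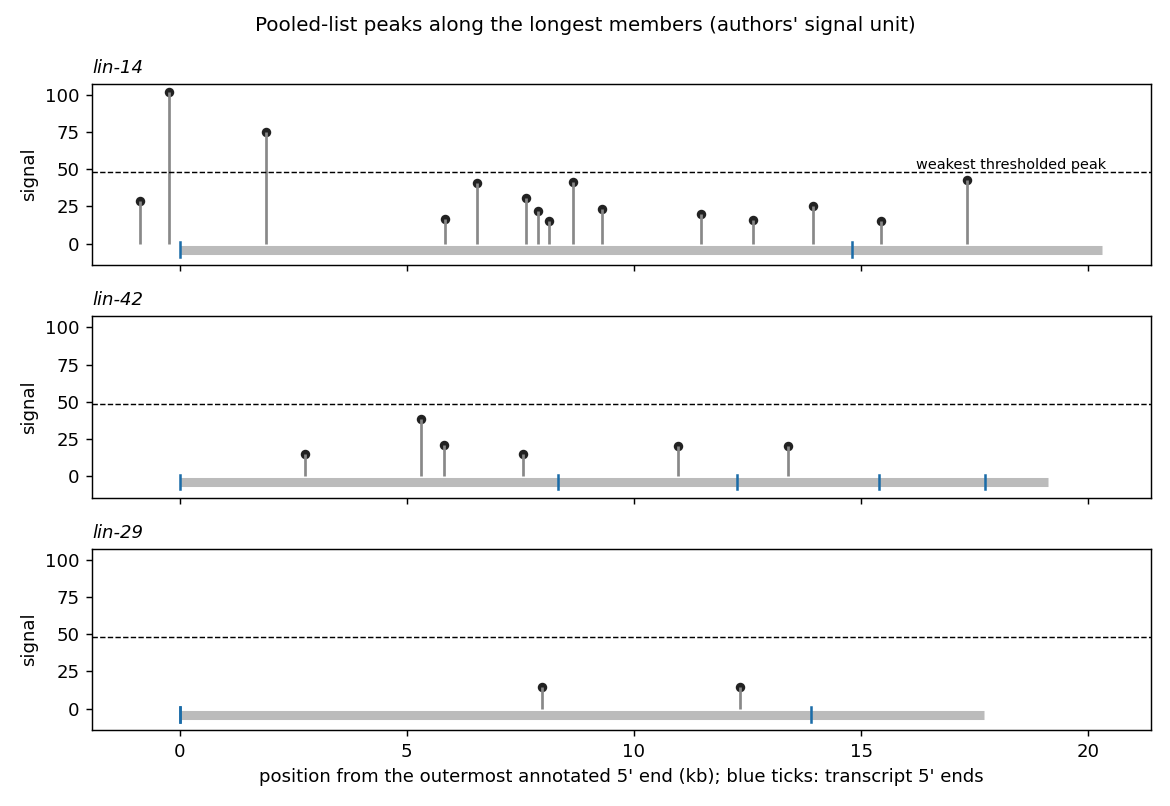
Signal (authors' unit) of each pooled-list peak in lin-14, lin-42 and lin-29, the 3 longest members, by the position of its summit in kb from the outermost annotated 5′ end; grey bars are the genes, blue ticks the transcript 5′ ends, and the dashed line the weakest thresholded peak (signal 48.4). Only the lin-14 peaks of signal 102 and 75.1 stand above the line, and lin-29 has 2 summits of 14.5 and 14.4.

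At lin-28 the stronger of 2 peaks lay inside the gene, at a second annotated start. LIN-28 is an RNA-binding protein that blocks the processing of let-7 precursors. The gene (WBGene00003014; chromosome I, 8407630 to 8410804, minus strand) has annotated 5′ ends 884 bp apart. The internal peak had a signal of 155 and its summit at −17 bp of the downstream 5′ end, in an intron of the longer form. Its signal was 52.6 in replicate 1 and 96.8 in replicate 2, at ranks 814 and 517, and 550 in the thresholded list.

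The peak in the lin-28 promoter window, at −499 bp of the outer 5′ end, had a signal of 75.5 and rank 1900. In replicate 1 it had a signal of 27.6 and in replicate 2 of 48.3. Within each of the lists the internal peak therefore ranked above the upstream one. Counted from every annotated transcript 5′ end instead of the outermost one, both lin-28 peaks fell into promoter windows, the same 5 of 9 members had a window summit, and the share over all protein-coding genes was 14.5%.

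lin-66, whose product limits lin-28 expression, is on chromosome IV (WBGene00001562; 13888079 to 13893986, plus strand). It had 1 peak, at −350 bp, with a signal of 154 and rank 562, and no other gene's window held its summit. Genes of piRNAs, a class of small RNA, were left out when the windows of other genes were searched. The signal was 32.0 in replicate 1 but 125 in replicate 2, and the ranks were 1852 and 262. The peak thus stood far higher in replicate 2.

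lin-46 encodes a protein related to the scaffold protein gephyrin, and acts downstream of lin-28. The gene (WBGene00003031; chromosome V, 12968855 to 12970730, plus strand) had a peak at −859 bp with a signal of 67.9 and rank 2180. The signal was 29.5 in replicate 1 and 39.9 in replicate 2, with ranks of 2068 and 2278. The summit also lay at −14 bp of R186.8 and at −786 bp of R186.3, both protein-coding genes and both closer to it than lin-46, so this peak cannot be assigned to lin-46. It was the only one of the 6 promoter peaks in another protein-coding gene's window. Of all 1982 thresholded peaks in promoter windows, 62.4% lay in the window of a single protein-coding gene.

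hbl-1 encodes a zinc finger factor related to fly Hunchback that holds back third-stage fates. The gene (WBGene00001824; chromosome X, 5822142 to 5827755, plus strand) had no thresholded summit. The pooled list held 1 weak summit in its window, at −835 bp, with a signal of 18.6, rank 11724 and a −log10 q of 0.237. Replicate 2 had summits at −970 bp (signal 19.5) and −766 bp (signal 13.6), and replicate 1 had none in the window. A pooled peak further out, at −1891 bp, had a signal of 38.2 and was found in both replicates, with signals of 18.6 and 21.3. It too was below the weakest thresholded peak. In the pooled list its summit lay inside an exon of the non-coding RNA gene F13D11.20, and in both replicates between genes.

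The strongest promoter peak of the 9 genes was that of ain-1, which encodes a GW182-family protein that binds Argonaute and brings about repression by microRNAs. The gene (WBGene00015547; chromosome X, 16613451 to 16616871, plus strand) had a peak at −973 bp with a signal of 280.2, ranked 103 of 3220. Its signal was 69.4 in replicate 1 and 216 in replicate 2, at ranks 449 and 49. It also had a second thresholded peak, at −762 bp with a signal of 66.1, whose region overlapped that of the first. Replicate 2 had a summit near each of them (39.6 at the weaker), while replicate 1 had 1 summit, at −889 bp between them, so the weaker peak had no replicate 1 summit within 100 bp.

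Both ain-1 summits lay between genes and in the window of no other annotated gene, piRNA genes not counted. Of the 2728 protein-coding genes with a thresholded window summit, 52 had 2 or more of them. The stronger peak lay close to the outer edge of the window. With a window of 500 bp on either side, ain-1 and lin-46 had no summit and the count fell to 3 of 9 (lin-14, lin-28 and lin-66), with a share of 11.6% over all protein-coding genes. The lin-28 summit, at −499 bp, was only just inside this window. Replicate 1 had it outside, at −536 bp, and replicate 2 inside, at −481 bp.

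Like hbl-1, the genes lin-41, lin-29 and lin-42 had no thresholded summit in the window or the gene, as is the case for most protein-coding genes. lin-41 encodes a TRIM-NHL RNA-binding protein that let-7 represses. The gene (WBGene00003026; chromosome I, 9334800 to 9342496, minus strand) had no window summit in any of the 4 lists, and a single weak one inside the gene, in replicate 2 (signal 8.8). A thresholded peak stood further upstream, at −1590 bp, with a signal of 128 and rank 802. It lay in no other gene's window, piRNA genes not counted. It was found at −1595 bp in replicate 1 (signal 44.5) and at −1568 bp in replicate 2 (signal 89.7). With 2000 bp upstream taken as the window, lin-41 joined the other 5 genes, making 6 of 9, and the share over all protein-coding genes was 17.4%.

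lin-29 encodes the zinc finger transcription factor that drives the larval-to-adult switch of the skin. The gene (WBGene00003015; chromosome II, 11917642 to 11935343, minus strand) had no window summit in any of the 4 lists. Its 2 pooled summits, both intronic, had signals of 14.5 and 14.4 and ranks of 19676 and 19947 of 21096. The nearest thresholded summit was at −24054 bp of its 5′ end. It held 0.113 pooled summits per kb, below the 0.172 of all protein-coding genes.

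lin-42, related to the circadian gene period of flies and mammals, encodes a protein whose level rises and falls with each molt. The gene (WBGene00018572; chromosome II, 1233236 to 1252359, minus strand) has 5 annotated 5′ ends. No thresholded summit lay within it, and the nearest stood at −68261 bp of the outermost 5′ end. Its strongest pooled peak, 5312 bp into the gene and inside an exon of the non-coding RNA gene F47F6.15, had a signal of 38.1 and rank 4202. Replicate 2 had it at a signal of 20.1, and replicate 1 had a weak summit at 5265 bp with a signal of 9.81.

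**Figure D2:**
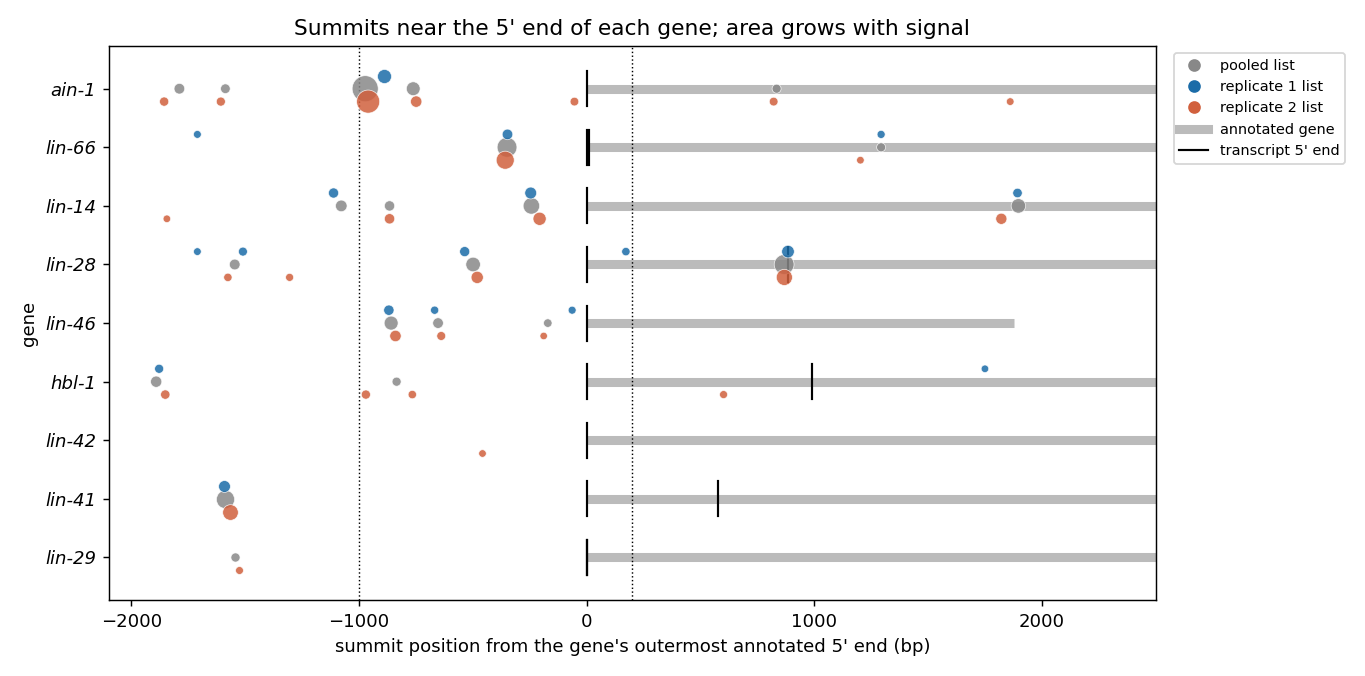
Position of each summit upstream of or inside the gene, from −2000 to 2500 bp of the outermost annotated 5′ end (x axis, bp) for the 9 genes (rows), in the pooled, replicate 1 and replicate 2 lists; dot area grows with the signal, black ticks are transcript 5′ ends and dotted lines bound the promoter window. Summits past the 3′ end of a gene are not drawn, which leaves the end of the lin-46 row (gene length 1876 bp) blank. Large dots lie in the windows of ain-1, lin-66, lin-14, lin-28 and lin-46. Others lie at the second lin-28 5′ end, in the lin-14 intron at 1896 bp, and outside the window at −1590 bp of lin-41.

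In order of signal, the promoter peaks of the 5 genes were those of ain-1 (280.2), lin-66 (154), lin-14 (102), lin-28 (75.5) and lin-46 (67.9). The weakest thresholded peak had a signal of 48.4. Among the 2728 protein-coding genes with a thresholded window summit, taken by their strongest one, the median signal was 98.0 with quartiles at 68.9 and 153. The ain-1 peak exceeded that of 95.3% of these genes, lin-66 75.4%, lin-14 52.6%, lin-28 32.1% and lin-46 23.9%. The median of the 5 members was 102. Both replicates placed ain-1 first, and replicate 2 kept the order of the other 4. Replicate 1 placed lin-14 above lin-66 and lin-46 above lin-28.

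**Figure D3:**
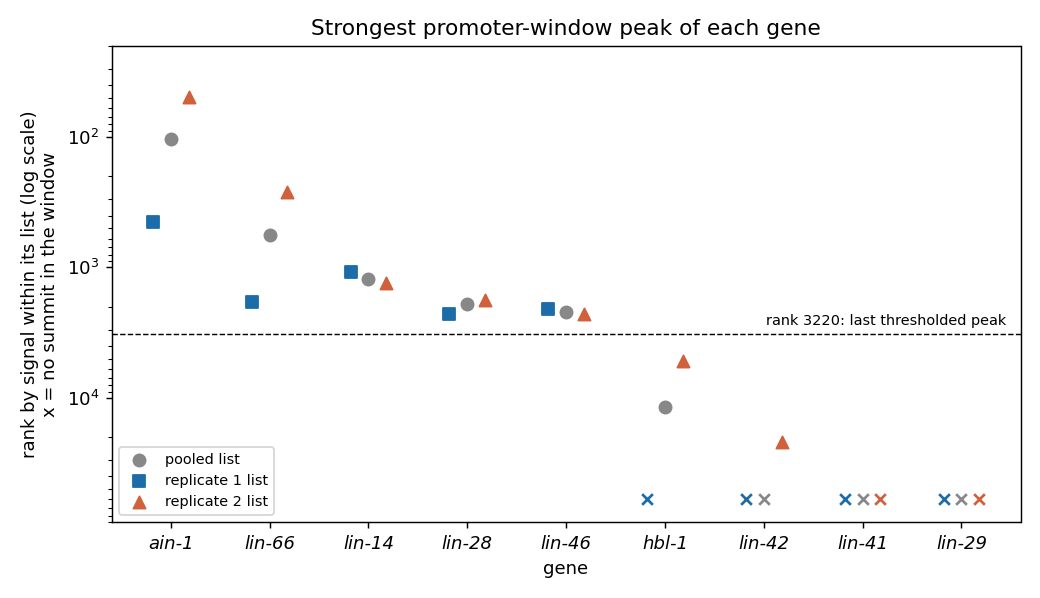
Rank by signal (log axis, strongest at the top) of the strongest promoter-window peak of each gene in the pooled, replicate 1 and replicate 2 lists; crosses mark no summit in the window, and the dashed line is rank 3220, the last thresholded peak. All 3 lists place ain-1, lin-66, lin-14, lin-28 and lin-46 above the line, and none places hbl-1, lin-42, lin-41 or lin-29 there.

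Each replicate's own 3220 strongest peaks gave the same 5 genes with a window summit. The thresholded list was itself drawn from both replicates, so this is not independent support. The shares over all protein-coding genes were 13.3% with replicate 1's peaks and 13.1% with replicate 2's. In the full relaxed lists, which also hold background, 6 members had a window summit in the pooled list (36.5% of all protein-coding genes), 5 in replicate 1 (43.3%) and 7 in replicate 2 (42.9%). The additional members were hbl-1 in the pooled list and hbl-1 and lin-42 in replicate 2, where the lin-42 summit had a signal of 8.01 and rank 21808 of 30000.

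Replicate signals come from lists called separately on an unstated scale, so their ratio has no absolute meaning and is read only against the ratios of other peaks. Of the 3220 thresholded peaks, 2996 (93.0%) had a summit of both replicates within 100 bp, and the median ratio of replicate 2 to replicate 1 signal was 1.46, with quartiles at 1.1 and 1.96. The ratio was 3.89 at lin-66 and 3.11 at the stronger ain-1 peak, higher than at 96.6% and 92.9% of the matched peaks. The ain-1 ratio sets the single replicate 1 summit between the 2 ain-1 peaks, 84 bp away, against 1 of 2 replicate 2 summits, and with matching within 50 bp it could not be formed. The ratio was 1.32 at the lin-14 promoter peak, 1.35 at lin-46, 1.75 at the lin-28 promoter peak and 1.84 at the internal lin-28 peak, all within the quartiles. With 1 value per replicate, no test of these differences was possible.

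The 2 peaks with the high ratios were also the most G and C rich of the member windows. Over the 2996 matched peaks, which share the same pair of libraries, Spearman's correlation between G and C content and the ratio was 0.29, given as a description. Among the 159 matched peaks with at least 58% G and C, the median ratio was 1.85 with quartiles at 1.44 and 2.38, so lin-66 and ain-1 exceeded the upper quartile of such peaks as well. The part of base composition in their ratios was not tested.

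**Figure D4:**
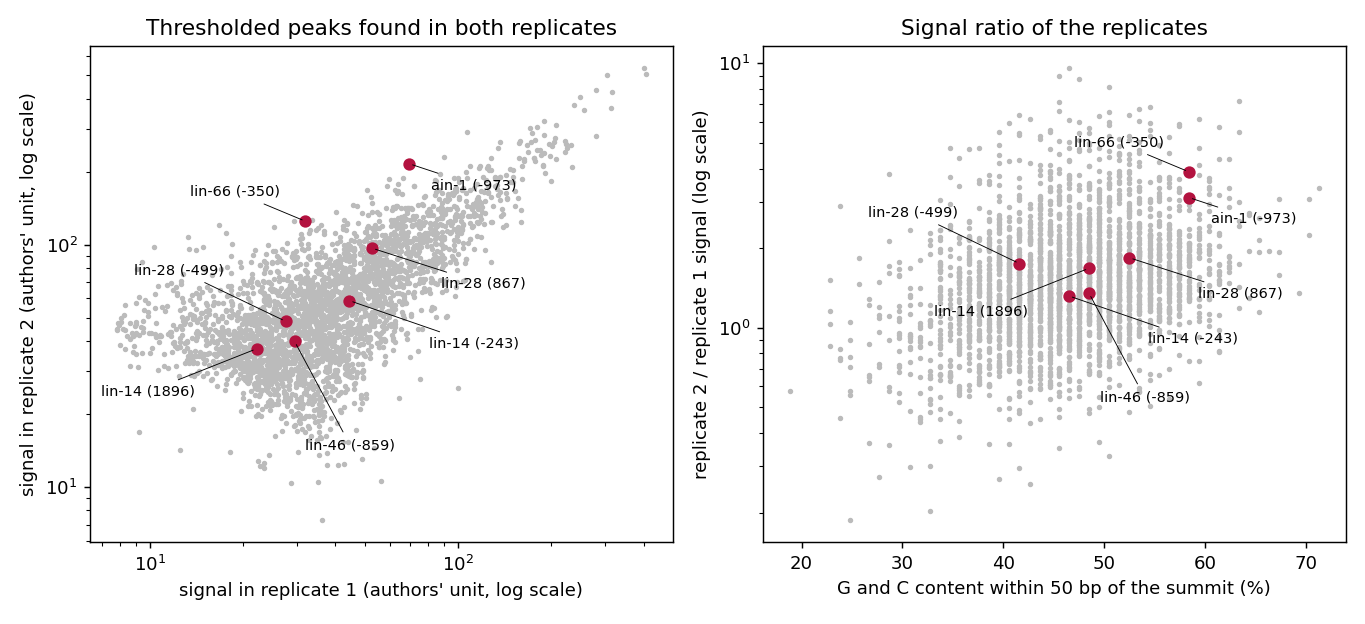
Left, signal in replicate 1 and replicate 2 (authors' unit, log axes) at the 2996 thresholded peaks found in both; right, the ratio of replicate 2 to replicate 1 signal (log axis) against G and C content within 50 bp of the summit (%). Grey dots are all peaks and red dots those of members with the summit position in bp; lin-66 (ratio 3.89) and ain-1 (3.11) exceed 96.6% and 92.9% of the matched peaks.

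Next above ain-1 in rank came the peak of the homeobox gene ceh-38 and of malt-1 (signal 281), and next below it a peak in an intron of nhr-19 (279). The lin-66 peak followed that of ima-1 and dvc-1, and the lin-28 promoter peak that of klp-15 and ctnb-1. The lin-14 promoter peak followed that of C55A6.1 and C55A6.10. The lin-46 peak stood between peaks in the windows of F45F2.10 and Y42G9A.3. The summits of these 2 peaks lay in an exon of F45F2.11 and an intron of wht-7.

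Among 22 other protein-coding genes of developmental timing and of the microRNA pathway, listed with earlier results known, 5 had a thresholded summit in the window and 17 had none (22.7%, against 13.7% of all protein-coding genes). The strongest was at puf-9, a Pumilio-family RNA-binding protein gene (signal 524, −283 bp), inside exons of non-coding RNA genes. Next came nhl-2, a TRIM-NHL cofactor of the microRNA complex (signal 401, −865 bp), whose summit lay at the 5′ end of the non-coding RNA gene F26F4.14 and at −558 bp of tag-340. pash-1, the partner of Drosha in microRNA processing, had a signal of 156, and myrf-1, a transcription factor of the myelin regulatory factor family, one of 106, inside an exon of the non-coding RNA gene F59B10.7. The lep-2 peak was weak (signal 51.2, rank 3021) and stood at rank 6297 in replicate 2.

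Neither of the Argonaute genes alg-1 and alg-2 had a thresholded summit in the window of the outermost 5′ end. The same held for ain-2, dcr-1, drsh-1, daf-12, kin-20 and blmp-1. Counted from every annotated transcript 5′ end, alg-1, alg-2 and kin-20 had one, and the others of these did not. The companion count was then 9 of 22, with a share of 14.5% over all protein-coding genes. The alg-1 summit (signal 59.8) lay at −313 bp of another annotated 5′ end of that gene. The count of 5 differed between the replicates: with replicate 1's strongest peaks alone it was 8 of 22, and with replicate 2's alone 4 of 22. Thresholded summits lay inside 8 of the 22 genes, against 3.44% of all protein-coding genes, among them 3 in kin-20 (signals 122, 96.4 and 49.4) and 1 each in daf-12 (99.1), sea-2 (98.4) and alg-2 (85.6). These genes held 0.0541 thresholded summits per kb of gene, against 0.0236 for the 9 members and 0.0131 for all protein-coding genes. None of the 6 non-coding genes of the pathway that were listed (lin-4, let-7, mir-48, mir-84, mir-241 and lep-5) had a thresholded summit in its window.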

How the data were processed

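The authors called peaks against a control, once for each replicate and once for both combined, and an irreproducible discovery rate threshold gave the thresholded list, per the deposited notes. Which aligner and caller they used is not given in the sources used here. Each peak's deposited signal has no stated scale; it was used to rank peaks within a list and, between the separately called replicate lists, as a ratio read only against the ratios of other peaks; the deposited −log10 q is tied at 3.84 for all 3220 thresholded peaks. The thresholded list equalled the 3220 strongest pooled peaks. Replicate lists hold 30000 peaks each. No read counts were used, so depth is unknown.

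Lists on ce11 were placed on WBcel235, the same assembly, with Ensembl release 115, in Python 3.11.15 with pandas 2.3.3. The placement was tested on simulated summits. Replicate summits were matched within 100 bp. Lists on ce10 were not used here. Genes of piRNAs were left out when other genes at a summit were looked for. The members, the companion genes, the windows and the words were chosen with earlier results of these data known, so no test was run. Named were all 9 members, genes sharing their summits, companions with a window summit, and the peaks next in rank to members; companions without one, or with a summit inside the gene, were chosen after seeing their values.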

Additional observations from a re-analysis of the deposited data

How the results depend on the processing

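The count of 5 of 9 members with a thresholded window summit stayed at 5 with every annotated transcript 5′ end (14.5% of all protein-coding genes, against 13.7%), peak regions in place of summits (14.4%), double the number of strongest pooled peaks (20.2%), and without either replicate (13.1% and 13.3%). It was 6 with 2000 bp upstream (17.4%), and 3 with 500 bp on either side (11.6%), where lin-46 and ain-1 drop out by construction of the window. There lin-28 stayed in narrowly, with its summit at −499 bp. Every transcript 5′ end, peak regions, the doubled peaks and 2000 bp upstream each contain the main setting, so they could not lower the count. The replicate settings are not independent of the thresholded list, which was drawn from both replicates. With the stronger 1610 thresholded peaks it was 3, without lin-28 and lin-46, and the share of all protein-coding genes was 8.15%. The companion count of 5 of 22 became 9 with every transcript 5′ end and 11 with double the number of pooled peaks, against the same 14.5% and 20.2% of all protein-coding genes, and ranged from 4 to 8 without 1 replicate; the cause of the last range was not tested. Signals in a single replicate ranged from 44.4 to 58.8 at lin-14, 27.6 to 48.3 at lin-28, 29.5 to 39.9 at lin-46, 32.0 to 125 at lin-66 and 69.4 to 216 at ain-1. Of the 8 member peaks, 7 had a summit of both replicates within 100 bp, 5 within 50 bp and 8 within 200 bp, where 1 replicate 1 summit is counted for both ain-1 peaks. No paired analysis was possible because the series holds 1 group. Depth is unknown, so a missing peak at hbl-1, lin-29, lin-41 or lin-42 does not show absence of binding.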
